A study of Mus musculus with 6 samples.

Results

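The ectodysplasin pathway and the NF-kB genes downstream of it were examined in the facial skin of Trps1 mutant mouse embryos. The genes were chosen by name: the ligand Eda, the receptors Edar and Eda2r, and the adaptors Edaradd and Traf6. With them were taken the NF-kB subunits Nfkb1, Rela and Relb, the inhibitor Nfkbia, and Tnfrsf19. Tnfrsf19 was included as a receptor related in sequence to Edar. Every probe set that the platform annotation assigns to one of these symbols was taken. This gave 19 of the 22626 mouse probe sets on the array, for 8 of the 10 genes. Eda2r and Nfkb1 had no probe set under their names in the annotation used here, so no signal is given for them.

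Whole whisker pads, the skin in which the vibrissa follicles form, were collected at E12.5 from embryos homozygous for a Trps1 mutation and from wild-type embryos. Each group has 3 one-colour Affymetrix MOE430A arrays of total RNA, from 3 embryos, 1 embryo an array by the submitters' description. The series title asks for the targets of Trps1, a GATA-type zinc finger repressor, in vibrissae. The labels name neither the mutant allele nor the strain, and both groups share age and dissection.

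Ectodysplasin is a ligand of the tumour necrosis factor (TNF) family. It binds the receptor Edar on the cells of ectodermal placodes, the epithelial thickenings from which hair, teeth and glands form. Edar recruits the death domain adaptor Edaradd, which joins it to Traf6 and to the kinases that mark the inhibitor Nfkbia for destruction, so that NF-kB dimers can enter the nucleus. Mice that lack Eda, Edar or Edaradd (tabby, downless and crinkled mice) have the same defects of hair, teeth and sweat glands.

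Signals are the linear values the authors deposited. They had a trimmed mean of 250.1 on each array, so the arrays were scaled before deposit. Across the arrays 27 bacterial control probe sets, to which no mouse RNA should bind, read 0.4 to 33.8, and "above background" below means a signal over 33.8. Differences are mutant minus wild-type on the log2(signal + 16) scale, which understates the change of dim genes, with a 95% interval from limma. By the sex-linked genes Xist and Eif2s3y, wild-type replicate 3 read as female (Xist 461.5, Eif2s3y 11.9), and the other 5 arrays read as male (Eif2s3y 207.3 to 272.3). The mutant replicate 3 array had the highest ratio of 3' to 5' actin signal, 1.35 against 1.07 to 1.19 on the others. Trps1 itself read 1297.3, 1491.9 and 1506.7 in mutant pads, against 807.6, 1061.4 and 748.1 in wild-type pads, a difference of 0.72 (limma adjusted p = 0.677). The labels do not say where its probe set lies relative to the mutation, so this does not check the genotypes. The vibrissa placode markers Dkk4, Lhx2, Sox21, Sostdc1, Lef1 and Wnt10b read above background in at least 1 group mean, while Shh did not.

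None of the 19 probe sets passed limma after adjustment over the whole array (lowest adjusted p = 0.921), and over the whole array 0 probe sets (0%) passed. At an unadjusted p under 0.05, 1 of the 19 was higher in mutant pads, a Traf6 probe set, against 2.9% of all probe sets, and 0 of the 19 were lower, against 2.37% of all. The groups did not overlap at 1 probe set that was higher in mutant pads (Traf6), against 5.41% of all probe sets, and at 1 that was lower (Edar), against 4.76%. These shares lie near those of the whole array and are not a result about the pathway. The difference was above 0 at 13 of the 19 probe sets and below 0 at 6, with a median of 0.15 against 0.0029 over all probe sets, and probe sets of 1 gene are not independent of each other. In whole pads, fewer cells that carry a transcript and less transcript per cell cannot be told apart.

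**Figure D1:**
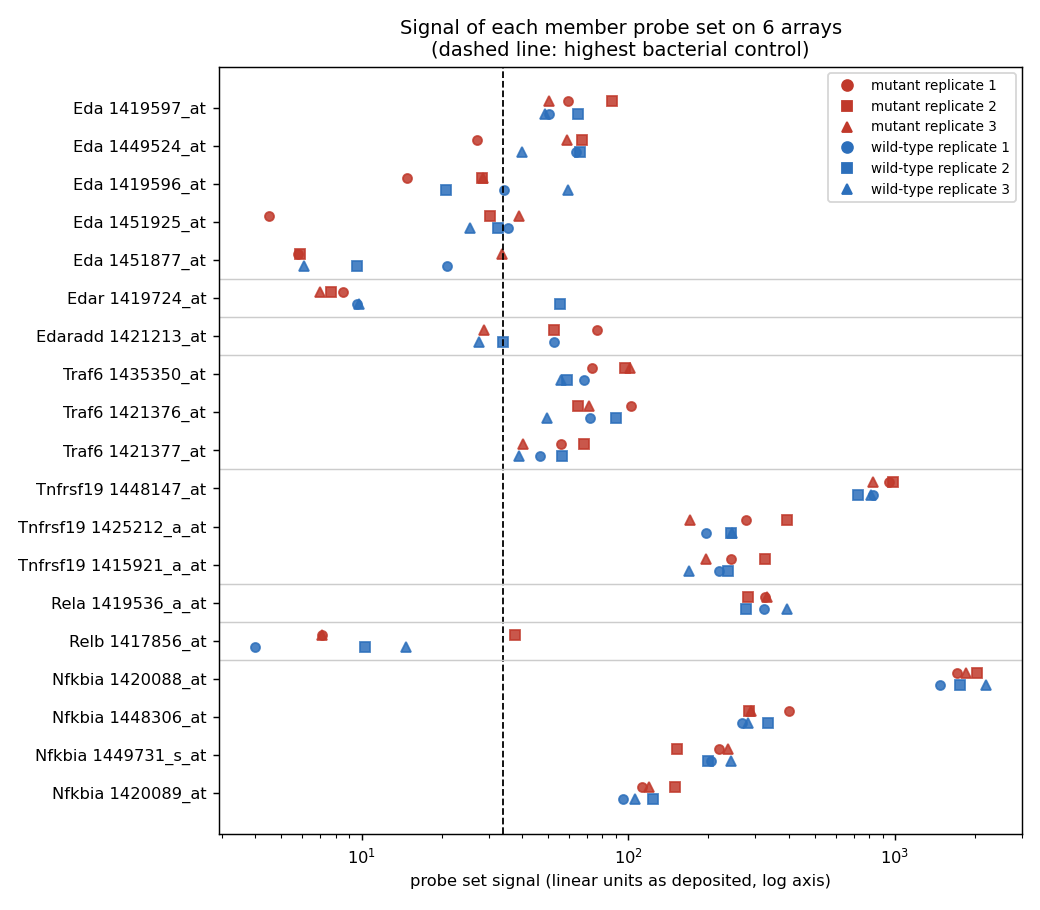
Signal of the 19 probe sets on each of the 6 arrays (horizontal log axis, linear units as deposited), with mutant arrays in red above wild-type arrays in blue in each row. Of the 19, 12 lay right of the highest bacterial control (33.8, dashed line) on all 6 arrays, among them every probe set of Traf6, Tnfrsf19, Rela and Nfkbia, while Edar crossed it on 1 wild-type array and Relb on 1 mutant array.

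The ligand Eda is X-linked and was covered by 5 probe sets, of which 1 lay above background on all 6 arrays. That probe set (1419597_at) read 59.4, 86.8 and 50.4 in mutant pads, against 50.4, 64.6 and 48.6 in wild-type pads. The groups overlapped, and the difference was 0.19 (95% interval -0.30 to 0.68, adjusted p = 0.993 by limma). Its size rested on single arrays: leaving out mutant replicate 2 gave 0.01, and leaving out mutant replicate 3 gave 0.33. A second probe set (1449524_at) read 27, 67 and 58.8 in mutant pads, against 63.7, 66 and 40 in wild-type pads, and only mutant replicate 1 lay under 33.8. Its difference was -0.15 (95% interval -0.83 to 0.52), and leaving out single arrays gave -0.33 (mutant replicate 2 or wild-type replicate 3) to 0.14 (mutant replicate 1). At the other 3 probe sets, 1 of the 9 mutant values and 3 of the 9 wild-type values were above background, and the differences were -0.40, -0.33 and 0.06. Across the 6 arrays the 5 probe sets did not move as one: the Pearson correlations of their 10 pairs ran from -0.51 to 0.90, with a median of 0.21. The female wild-type array gave the lowest of the 3 wild-type values at 4 of the 5 probe sets and the highest at the other (59.5 at 1419596_at). Without that array the difference at the brightest was 0.13, and at 1419596_at it was -0.13 in place of -0.40. On the offset scale the intervals of the 2 brightest span a fold of 0.81 to 1.60 and of 0.56 to 1.44.

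Edar, the receptor that placode cells carry, had 1 probe set (1419724_at). It read 8.5, 7.7 and 7 in mutant pads, against 9.6, 55.3 and 9.8 in wild-type pads. Wild-type replicate 2 was the only array of the 6 above background, and the other 5 lay within the range of the bacterial controls. The highest mutant value, 8.5, lay just under the lowest wild-type value, 9.6. The difference was -0.61 (95% interval -1.51 to 0.30, limma adjusted p = 0.985), and an exact two-sided permutation test gave p = 0.1, the smallest that 3 against 3 can give. Without wild-type replicate 2 the difference was -0.12, so that 1 array set its size, and without wild-type replicate 3 it was -0.85. The same array had the highest Sox21 of the 6 (104.8), an intermediate Dkk4 (115.2) among the wild-type arrays and a surface ectoderm marker sum of 3887.3, inside the wild-type range of 3763.7 to 5542. Because 3 mutant and 2 wild-type values were at background, neither a fall in Edar nor the size of a change was measurable with this probe set. No mutant array read above background.

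The summed signal of 8 measured placode markers (of 9, Edar among them) was 600.7 to 933 in mutant pads, against 752.2 to 1670.2 in wild-type pads. Most of each sum came from Sostdc1 and Lef1, so it says little of the dimmer markers. Lef1 differed by 0.12 and was lowest in replicate 3 of each group (96.9 in mutant, 112 in wild-type), where the sums were lowest too. At an unadjusted p under 0.05 by limma, 4 of the 8 were lower, Lhx2, Sox21, Dkk4 and Sostdc1, against 2.34% of all genes. At the same p 0 were higher, against 2.7% of all genes. The markers were chosen with earlier results of these data known, so these counts are no independent evidence. The 13 measured surface ectoderm markers, all above background in at least 1 group mean, summed to 3634.3 to 5064.2 in mutant pads, against 3763.7 to 5542 in wild-type pads, and 0 had an unadjusted p under 0.05. The part of these markers in the Edar values was not tested.

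**Figure D2:**
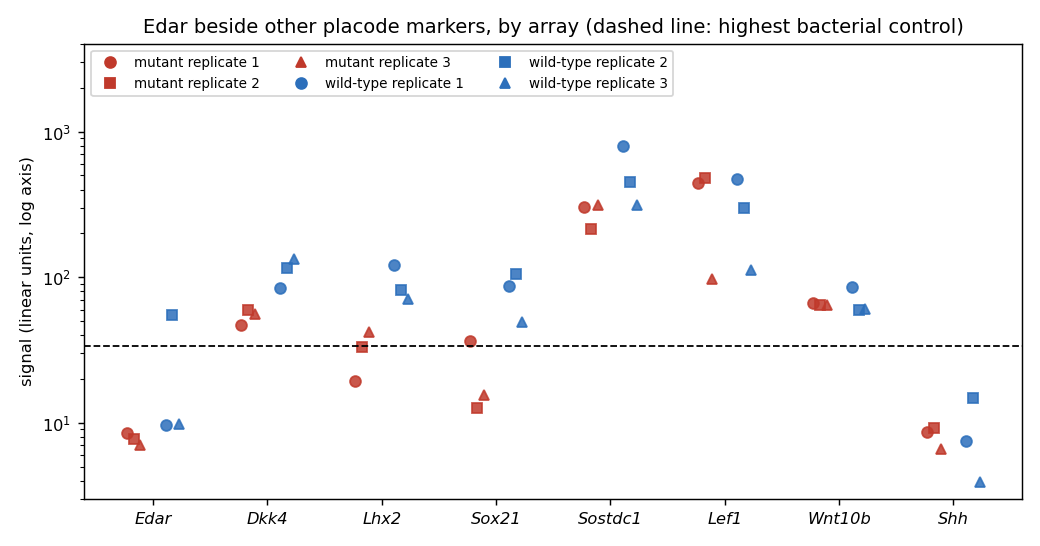
Signal of Edar and of 7 other placode markers (vertical log axis, linear units) on each array, mutant in red at the left and wild-type in blue at the right of each gene. Edar stands over the highest bacterial control (33.8, dashed) only in wild-type replicate 2, at 55.3, whereas Dkk4 lies over it on all 6 arrays, at 46.6 to 59.5 in mutant and 83.8 to 133.5 in wild-type pads.

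The sequence around the start of Edar is shown because Trps1 binds GATA elements. In the 300 bases from 250 before to 50 after the RefSeq start (GRCm38.p6, chr10:58675647-58675946, minus strand), the words AGATAA or AGATAG were searched on both strands, as were TGATAA or TGATAG. The capitals mark the 1 match, TGATAG, which begins 230 bases before the start.
Edar: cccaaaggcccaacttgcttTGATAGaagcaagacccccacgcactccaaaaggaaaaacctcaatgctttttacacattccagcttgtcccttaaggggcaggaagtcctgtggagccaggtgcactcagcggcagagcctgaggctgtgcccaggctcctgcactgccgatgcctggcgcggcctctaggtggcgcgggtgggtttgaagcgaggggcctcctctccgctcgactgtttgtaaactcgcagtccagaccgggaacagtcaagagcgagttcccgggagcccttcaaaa
Of 32851 such windows searched in the RefSeq table, 29.8% hold at least 1 of these words. The searched windows held 9 for 8 of the 10 genes, Eda2r among them, but not for Relb or Nfkb1. Of these 9, only the Edar window held a match. A match describes letters, and neither a match nor its lack says whether Trps1 binds there.

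Edaradd, the death domain adaptor that Edar needs, read 76.4, 52.8 and 28.7 in mutant pads, against 52.7, 34 and 27.5 in wild-type pads. In each group 2 of the 3 arrays were above background and replicate 3 was under it. The groups overlapped, with a difference of 0.31 (95% interval -0.39 to 1.01, limma adjusted p = 0.993). Leaving out mutant replicate 1 gave 0.06, leaving out mutant replicate 3 gave 0.59, and leaving out wild-type replicate 3 gave 0.17.

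Tnfrsf19 (also called Troy), a TNF receptor family member related in sequence to Edar and expressed in skin and hair follicles, had 3 probe sets, all above background on all 6 arrays. Its brightest (1448147_at) read 947.8, 979.9 and 825.9 in mutant pads, against 826.2, 724.5 and 812.2 in wild-type pads. Another (1425212_a_at) read 276.4, 393.1 and 170.8 in mutant pads, against 195.3, 242.7 and 244.3 in wild-type pads, and the third (1415921_a_at) read 243.2, 327.1 and 196.1, against 218.2, 235.9 and 168.8. At all 3 probe sets mutant replicates 1 and 2 lay above every wild-type array, and mutant replicate 3 lay within the wild-type range or under it. The differences were 0.22 (95% interval -0.15 to 0.58), 0.22 (-0.45 to 0.89) and 0.26 (-0.26 to 0.79) in that order, with limma adjusted p-values of 0.99, 0.995 and 0.993. The 3 probe sets of Tnfrsf19 moved together across the arrays, with Pearson correlations of 0.59 to 0.76 between them over the 6 arrays. All probe sets of an array share its RNA and dissection. Without mutant replicate 3 the differences were 0.29, 0.51 and 0.43, without mutant replicate 2 they were 0.17, -0.05 and 0.08, and without wild-type replicate 2 they were 0.16, 0.26 and 0.36. At 1448147_at no single array moved the difference by over 1.5 times, while mutant replicates 2 and 3 did so at the other 2 probe sets. Wild-type replicate 1 also did so at 1425212_a_at, and wild-type replicate 3 at 1415921_a_at. Without wild-type replicate 3 the 3 differences were 0.24, 0.27 and 0.13, and without wild-type replicate 1 they were 0.25, 0.12 and 0.30.

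Traf6, a ubiquitin ligase that carries signals from Edaradd and from several other receptors to the kinases upstream of NF-kB, had 3 probe sets, each above background on all 6 arrays. At 1435350_at it read 73.1, 97.5 and 101.2 in mutant pads, against 68.3, 58.9 and 56 in wild-type pads. All 3 mutant arrays lay above all 3 wild-type arrays, with mutant replicate 1 closest to them. The difference was 0.46 (95% interval 0.05 to 0.87, a fold of 1.04 to 1.82 on the same offset scale). It had an unadjusted p = 0.0311 by limma and an adjusted p = 0.921 over all probe sets, and an exact permutation test gave p = 0.1. The other 2 Traf6 probe sets gave smaller differences. At 1421376_at the signal was 102.2, 64.8 and 71 in mutant pads, against 72.1, 89.9 and 49.6 in wild-type pads, a difference of 0.15 (-0.41 to 0.70). At 1421377_at it was 56, 68.1 and 40.3, against 46.9, 56.3 and 38.8, a difference of 0.15 (-0.33 to 0.63), and at both the groups overlapped. Leaving out single arrays gave -0.04 (wild-type replicate 3) to 0.31 (wild-type replicate 2) at 1421376_at, and 0.02 (mutant replicate 2) to 0.31 (mutant replicate 3) at 1421377_at, with 0.05 there without wild-type replicate 3. The probe set 1435350_at correlated with these 2 at 0.03 and 0.24 over the 6 arrays, so the separation of the groups was a property of 1 probe set of 3. When mutant replicate 2 or 3 or wild-type replicate 2 or 3 was left out, the difference at 1435350_at was 0.39 to 0.44 with an unadjusted p of 0.0799 to 0.09. Without both replicate 3 arrays its difference was 0.34 (unadjusted p = 0.15).

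**Figure D3:**
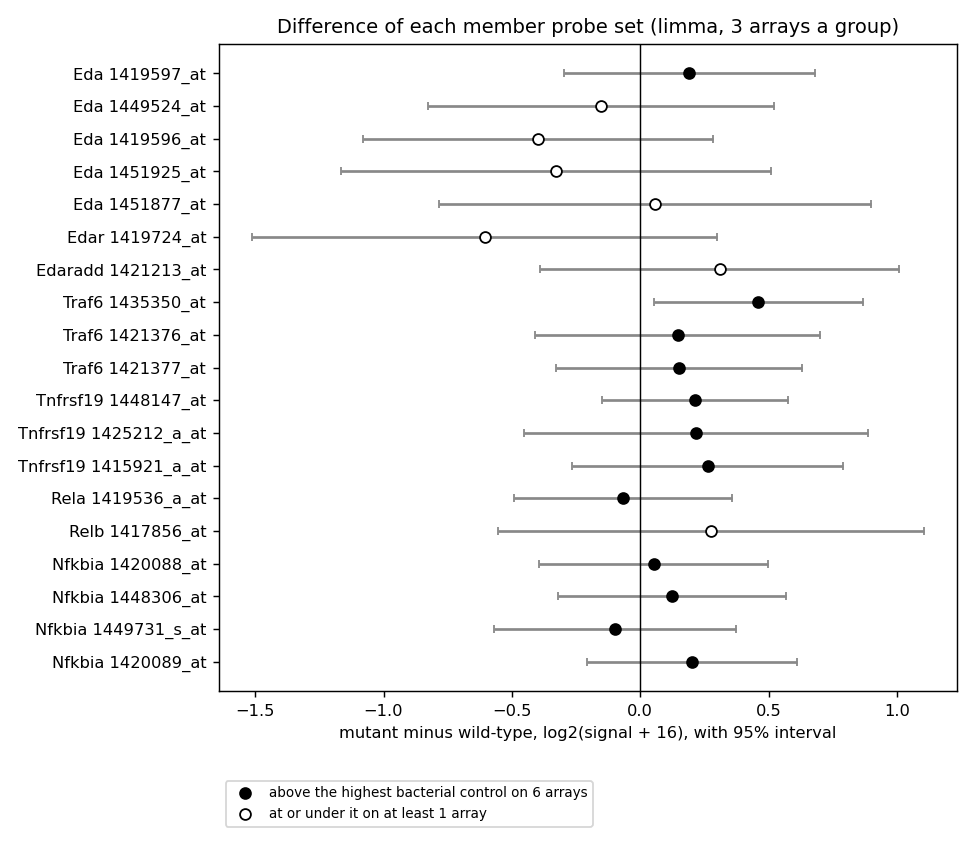
Mutant minus wild-type difference of the 19 probe sets on the log2(signal + 16) scale with 95% intervals from limma, filled where all 6 arrays were above background. The interval of 18 probe sets includes 0, the exception being Traf6 1435350_at at 0.05 to 0.87, and the widest interval is that of Edar, -1.51 to 0.30.

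Of the NF-kB subunits, Rela, which holds the activation domain of the dimer most often formed downstream of TNF receptors, was above background on every array. It read 327.2, 281.1 and 332 in mutant pads, against 323.5, 277 and 395.5 in wild-type pads. The groups overlapped, with the highest value in the female wild-type replicate 3. The difference was -0.07 (95% interval -0.49 to 0.36, a fold of 0.71 to 1.28, limma adjusted p = 0.995), and 0.06 without wild-type replicate 3. Relb, a subunit of the alternative NF-kB pathway, read 7.1, 37.7 and 7.1 in mutant pads, against 4, 10.3 and 14.7 in wild-type pads. Only mutant replicate 2 was above background. The difference of 0.28 (-0.55 to 1.11) became -0.13 without that array and was 0.48 without mutant replicate 3, so no change in Relb was measurable.

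Nfkbia holds NF-kB in the cytoplasm and is itself a target of NF-kB, which makes its RNA a commonly used readout of the pathway. It had 4 probe sets, all above background on all 6 arrays. Of these, the annotation used here gives a sequence record for 1448306_at only. The brightest, 1420088_at, has none and correlated with 1448306_at at -0.16 over the 6 arrays. How well 1420088_at reports Nfkbia was not tested. The brightest (1420088_at) read 1706.7, 2025.5 and 1842 in mutant pads, against 1477.3, 1760.1 and 2194.8 in wild-type pads. The mutant values lay inside the wild-type range, and the difference was 0.05 (95% interval -0.39 to 0.50, a fold of 0.76 to 1.41, limma adjusted p = 0.995). The probe set 1448306_at read 399.6, 284.9 and 289.6 in mutant pads, against 267.5, 334.5 and 281.3 in wild-type pads, a difference of 0.12 (-0.32 to 0.57). At 1449731_s_at, whose suffix marks probes that can match transcripts of other genes, the signal was 219.1, 152.3 and 237.5 in mutant pads, against 205, 198.9 and 243.2 in wild-type pads, a difference of -0.10 (-0.57 to 0.37). At 1420089_at it was 112.7, 149.8 and 120.1, against 96, 123.8 and 105.8, a difference of 0.20 (-0.21 to 0.61). The 4 differences had both signs, the groups overlapped at each, and the pairs of Nfkbia probe sets correlated at -0.71 to 0.47 over the 6 arrays. Without wild-type replicate 3 the difference at the brightest was 0.20.

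The sequence around the start of Nfkbia is shown because this gene is a target of NF-kB. The 300 bases lie at chr12:55492598-55492897 (GRCm38.p6, RefSeq, minus strand). The capitals mark the 1 match to the 10-letter kappa-B consensus, searched on both strands. It begins 29 bases before the start and matches on the strand opposite to the one shown.
Nfkbia: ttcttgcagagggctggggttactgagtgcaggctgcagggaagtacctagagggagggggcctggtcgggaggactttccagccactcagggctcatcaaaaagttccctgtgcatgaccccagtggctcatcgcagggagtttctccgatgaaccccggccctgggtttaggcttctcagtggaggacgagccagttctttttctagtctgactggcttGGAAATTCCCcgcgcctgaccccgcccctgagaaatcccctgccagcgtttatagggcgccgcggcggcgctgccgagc
Such a match was found in 4.51% of the 32851 windows, and among the 9 windows of these genes in this one alone. The match is a description and not evidence of binding in these pads.

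For the 12 probe sets above background on all arrays, the differences ran from -0.10 to 0.46, 10 of them above 0. The outermost bounds of their 95% intervals were folds of 0.67 and 1.85. These bounds are on the offset scale and understate the range in signal units. Of the 7 others, 6 were above background on some arrays and 1 (Eda 1451877_at) on 0, and their intervals are left out of these bounds.

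The other parts of the pathway were described from lists, each gene by its brightest probe set. Some genes are in more than 1 list, among them Icam1, Tnfaip3, Nfkbie and Tnf. The list counts and medians are therefore not independent of each other. Genes named from the lists were mostly picked by smallest unadjusted p, so separate groups among them are no added evidence. Over all probe sets the groups did not overlap at 5.41% with mutant pads higher and at 4.76% with them lower. Among all 12393 genes, 2.7% had an unadjusted p under 0.05 with the higher mean in mutant pads and 2.34% with the lower mean, and the median difference was 0.00017. Of 40 other NF-kB pathway components (kinases, adaptors, inhibitors and further subunits), 32 were measured and 27 had a group mean above background. The median difference was 0.01 (0.0012 to 0.08 over the settings tried), with 18 genes above 0 and 14 below, and 0 passed after adjustment. At an unadjusted p under 0.05, 1 was higher and 1 lower. The higher one was Tab1, an activator of the kinase Map3k7 (Tak1) that acts after Traf6, at 164.1, 166.3 and 159.9 in mutant pads, against 129.8, 111.6 and 132.9 in wild-type pads. The groups were separate, with a difference of 0.35 (95% interval 0.01 to 0.70, unadjusted p = 0.0467, limma adjusted p = 0.947). Leaving out any single array gave Tab1 differences of 0.28 to 0.40 with unadjusted p-values of 0.054 to 0.15. The lower one, Tnip2, read under background in both groups and is named for completeness after its values were seen. Ikbkg (NEMO), the regulatory subunit of the IkB kinase, read 165.7, 146.6 and 205.4 in mutant pads, against 142.6, 146.7 and 105.3 in wild-type pads, a difference of 0.35 (0.22 without wild-type replicate 3, 0.23 without mutant replicate 3 and 0.10 without both). Nfkbie, another IkB inhibitor, read 22.7, 5.2 and 39.2 in mutant pads, against 47.5, 40.7 and 42.5 in wild-type pads, a difference of -0.74 (-1.51 to 0.03, unadjusted p = 0.0574). It was -0.36 without mutant replicate 2 and -1.05 (unadjusted p = 0.00849) without mutant replicate 3. Only 1 of its 3 mutant values was above background, and it is also among the general targets below. The Toll receptor adaptor Myd88 differed by 0.36, with overlapping groups, by 0.14 when wild-type replicate 2 was left out and by 0.63 (unadjusted p = 0.0306) when the female wild-type replicate 3 was.

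Of 16 genes known to respond to ectodysplasin in placodes or skin, 15 were measured and 10 had a group mean above background. The median difference was -0.24, with 5 genes above 0 and 10 below. At an unadjusted p under 0.05, 2 were lower, Dkk4 and Sostdc1, against 2.34% of all genes, and 0 were higher, against 2.7%. After adjustment over all probe sets 0 passed. The list was chosen with earlier results of these data known, so these counts are no independent evidence. The secreted Wnt inhibitor Dkk4 read 46.6, 59.5 and 55.5 in mutant pads, against 83.8, 115.2 and 133.5 in wild-type pads, a difference of -0.84 (95% interval -1.30 to -0.39, limma adjusted p = 0.653). Dkk4 is also in the authors' deposited table of 65 probe sets, chosen on these same arrays, with a fold of 1.68 and higher in wild-type, so its direction is no independent evidence, and 0 of the 19 ectodysplasin and NF-kB probe sets are in that table. Sostdc1, an inhibitor of BMP and Wnt signals, read 305.2, 213.2 and 312.1 in mutant pads, against 798.4, 448.2 and 312.8 in wild-type pads, and the groups were separated by less than 1 unit. Its difference was -0.79 (unadjusted p = 0.0496, limma adjusted p = 0.947), and -0.43 without wild-type replicate 1. Of the single arrays, only leaving out wild-type replicate 3 kept the unadjusted p of Sostdc1 under 0.05 (0.0105), and the others gave 0.0689 to 0.147. The cell cycle gene Ccnd1 read 743, 652.6 and 723.3 in mutant pads, against 1259.6, 886.9 and 808.4 in wild-type pads, a difference of -0.45 (-0.92 to 0.03, unadjusted p = 0.0606), or -0.26 without wild-type replicate 1. The adhesion molecule Icam1 differed by 0.43 in the other direction, with overlapping groups, and by 0.17 without wild-type replicate 2. Dkk4, Shh, Sostdc1 and Wnt10b are placode markers as well, so this list shares genes with the placode marker sums given above. The part of placode cells in the differences of this list was not tested. Over the settings tried, 1 to 3 genes were lower and 0 to 2 higher at that p, and the median was -0.32 to -0.04.

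General NF-kB target genes of inflammation and survival numbered 30, of which 29 were measured and 18 had a group mean above background. Their median difference was 0.10 (0.02 without mutant replicate 3, 0.05 without mutant replicate 2 and 0 with a floor of 32), with 17 above 0 and 12 below. At an unadjusted p under 0.05 by limma, 0 were higher, against 2.7% of all genes, and 0 were lower, against 2.34%. Over the settings tried 0 to 1 were higher and 0 to 2 lower at that p, and 0 passed after adjustment in any. The vascular adhesion molecule Vcam1 read 364, 357.5 and 332.6 in mutant pads, against 254.5, 291.7 and 307.4 in wild-type pads, which left the groups separate with a difference of 0.29 (-0.06 to 0.65, unadjusted p = 0.0936). Ptgs2, the inducible cyclooxygenase, read 35.9, 57.4 and 39.5 in mutant pads, against 23, 10.9 and 41.7 in wild-type pads. The cytokine gene Tnf read 18.7, 16.7 and 59.4, against 45.2, 84.2 and 59.6. Wild-type replicates 1 and 2 at Ptgs2 and mutant replicates 1 and 2 at Tnf were under background. Ptgs2 differed by 0.60 (-0.09 to 1.29) and Tnf by -0.81 (-1.63 to 0.01), both with overlapping groups. With a floor of 32 the differences were 0.31 and -0.63. The Ptgs2 difference was 0.33 without wild-type replicate 2 and 0.88 (unadjusted p = 0.0119) without wild-type replicate 3, and that of Tnf was -0.60 without mutant replicate 2 and -1.20 (unadjusted p = 0.00237) without mutant replicate 3. The 10 leukocyte markers summed to 528.4 to 680.1 in mutant pads, against 602.2 to 645.4 in wild-type pads. Of these markers 0 were higher and 1 was lower at an unadjusted p under 0.05, beside the 2.7% and 2.34% of all genes. Ptprc, Aif1, Fcer1g and Cd52 among them read at or under background in both group means.

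Among 40 other TNF receptors and ligands, 36 were measured and 19 had a group mean above background, with a median difference of -0.10 (0.02 when wild-type replicate 3 was left out, 0.0028 when mutant replicate 2 was). At an unadjusted p under 0.05, 1 was higher, against 2.7% of all genes, 3 were lower, against 2.34%, and 0 passed after adjustment. This list too was chosen with earlier results of these data known. The higher one, the costimulatory receptor Tnfrsf9, read 17.9, 79.1 and 48.3 in mutant pads, against 13.7, 17.2 and 14.1 in wild-type pads, where all 3 wild-type values were under background. Its difference was 0.93 (unadjusted p = 0.0302), but 0.59 (unadjusted p = 0.0861) without mutant replicate 2. Ngfr, the neurotrophin receptor carried by Schwann cells and some dermal cells, read 263.9, 259.6 and 165.9 in mutant pads, against 407.1, 352.6 and 450.9 in wild-type pads. Its difference was -0.79 (-1.30 to -0.29, unadjusted p = 0.00735, limma adjusted p = 0.739), with separate groups. The 8 measured neuron and Schwann cell markers, Ngfr among them, summed to 1794.4 to 2148.1 in mutant pads, against 1394.4 to 1629.4 in wild-type pads. Of these markers 3 were higher and 2 were lower at an unadjusted p under 0.05, beside the 2.7% and 2.34% of all genes. Their part in the Ngfr value was not tested. Tnfsf4 read 14.8, 14.1 and 58.9 in mutant pads, against 59.8, 55.5 and 65.1 in wild-type pads, with mutant replicates 1 and 2 under background. Its difference was -0.89 with overlapping groups (-0.66, unadjusted p = 0.12, without mutant replicate 2, and -0.61 with a floor of 32). The third lower gene, Tnfrsf18, read under background in both group means and is named after its values were seen.

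**Figure D4:**
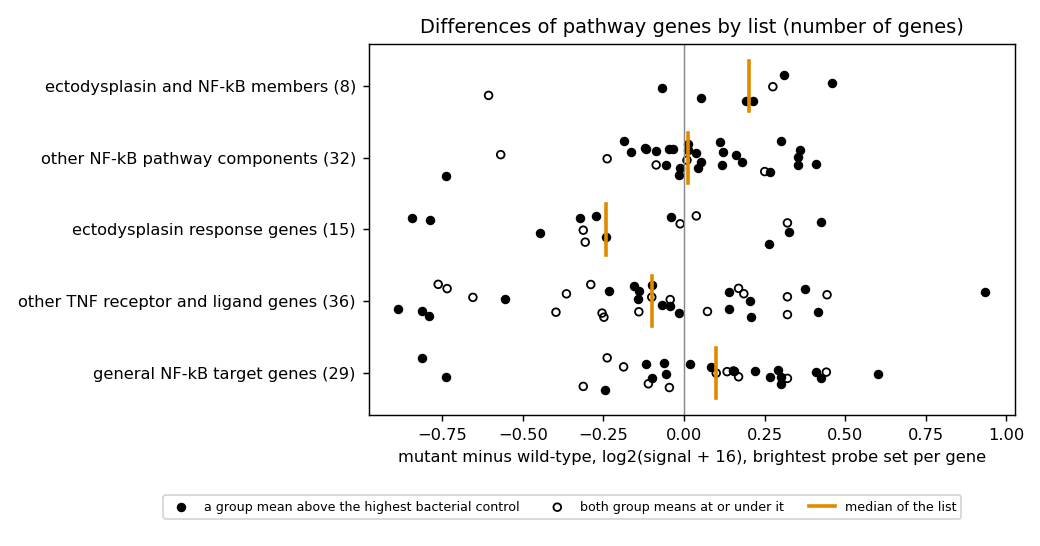
Mutant minus wild-type difference on the log2(signal + 16) scale of each gene, by list, with the list median in orange and open circles for genes whose group means were both at or under background. List medians run from -0.24 for ectodysplasin response genes to 0.20 for the 8 ectodysplasin and NF-kB members (0.0079 without mutant replicate 2), and genes of each list lie on both sides of 0.

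For the 3 member genes with the highest mean signal, the genes most alike across the 6 arrays were sought among 8212 genes above background on every array, by Pearson correlation of log2 signals and as a description only. Nfkbia, read by 1420088_at alone, was most like Ghrhr (0.993), Usp39 (0.981) and Foxp2 (0.979). Tnfrsf19 was most like Vps11 (0.978), Rrp12 (0.973) and Cdc25a (0.972), and Rela was most like Ntpcr (0.993), Nfic (0.992) and Ttc7b (0.987). Each value rests on 6 arrays and was picked as the highest of 8212, so it says nothing of shared function.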

How the data were processed

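The probe set intensities are linear values that the authors deposited for 6 arrays of biotin-labelled cRNA, per the labels; the way probes were summarised into probe sets is not stated there. The authors' deposited table of 65 probe sets gives a linear fold (ratio) and normalized log2 group values, for which the submitters' processing notes name GeneSpring GX 10.0 and an unpaired comparison.

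An offset of 16 was added to each signal before taking log2. The 64 control probe sets were left out. Genes were named by the platform annotation and updated by gene number to RefSeq (GRCm38.p6): 20380 probe sets had 1 gene, 691 several and 1555 none. Of the 20380, 20351 matched by gene number. The pair of arrays most alike had identical signals at 0.357% of probe sets. The genotypes were compared with limma 3.58.1 (R 4.3.3) over all 22626 probe sets, without covariates, two-sided, with Benjamini-Hochberg adjustment and a threshold of 0.05; the programs were tested on simulated data. The arrays were not paired by replicate number in the reported fit. Deviations from group means correlated at 0.038, 0.069 and 0.136 for equal numbers, and at -0.096 to 0.046 for unequal numbers. Whether arrays of equal number share a factor was not tested. Arrays give no depth, and their number limits the precision.

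The members and lists were chosen with earlier results of these data known. Named are all member probe sets, Trps1, up to 4 genes a list by smallest unadjusted p among those with a group mean above the bacterial controls, and the 3 genes most alike to each of the 3 brightest members. Promoter sequences are from RefSeq.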

Additional observations from a re-analysis of the deposited data

How the results depend on the processing

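The 17 settings, the reported one included, held 2 other normalizations, an offset of 1, a floor of 32, removal of the 7542 dimmest probe sets, a trended prior, array weights, a replicate block, the unpaired test, removal of each array and, chosen after seeing the data, of both replicate 3 arrays. In all of them 0 of the ectodysplasin and NF-kB probe sets passed, also with the replicate block (0 of all probe sets, 1295 at an unadjusted p under 0.05, against 1193 without it). Over the whole array 2 probe sets passed with the dimmest left out, 1 with the trended prior, and 0 to 1 with single arrays left out. The dimmest held Edar, Relb and 3 Eda probe sets, so that setting gave no value for them. The sign of an uncalled difference changed as follows. Eda 1451877_at was -0.0109 with an offset of 1, -0.17 with array weights, -0.49 without both replicate 3 arrays and -0.33 to 0.27 without single arrays. Eda 1451925_at was 0.0391 with a floor of 32 and -0.61 to 0.10 without single arrays, and Eda 1449524_at -0.33 to 0.14. Rela was 0.0178 without both replicate 3 arrays and -0.19 to 0.0592 without single arrays. Leaving out single arrays also gave -0.084 to 0.20, -0.0278 to 0.21 and -0.22 to 0.0804 for Nfkbia 1420088_at, 1448306_at and 1449731_s_at, -0.13 to 0.48 for Relb, -0.0522 to 0.51 for Tnfrsf19 1425212_a_at and -0.039 to 0.31 for Traf6 1421376_at. The cause was not tested. Traf6 1435350_at kept a difference of 0.46 with the trended prior (unadjusted p = 0.0737) and the replicate block (0.0603), and Tab1 one of 0.34 to 0.35 with quantile normalization (0.052), equal medians (0.0614), the trended prior (0.0663) and the replicate block (0.0766). Signals near the bacterial controls limit Edar, Relb, Edaradd and 4 of the 5 Eda probe sets.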
